A study of Homo sapiens with 2 samples.

Results

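The TRIM genes encode a large protein family, most of whose members are ubiquitin ligases. They were examined for LDB1 peaks in NB4 cells, a line from acute promyelocytic leukemia that carries the PML-RARA fusion. Members were chosen by name: every protein-coding gene of GENCODE release 44 whose symbol is TRIM followed by a number and at most 1 letter. This gave 73 of 20033 protein-coding genes. The series held 2 CUT&Tag libraries, 1 made with an LDB1 antibody and labelled LDB1 overexpression and 1 made with IgG and labelled untreated, so the antibody and the treatment differ together and cannot be told apart. The study's methods for this assay do not mention the overexpression. CUT&Tag uses a transposase tethered to an antibody, which inserts sequencing adapters into DNA close to the antibody's target. The values were the 11046 deposited peaks of the LDB1 library, each given by its position in hg38 and its length, with no height, and the read depth is unknown. There were no replicates, no test between libraries was made, and nothing from the IgG library was analysed here apart from what the authors may have used in calling peaks. Peak positions hold no measure of expression, so the label of the cell line was not checked against marker genes.

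Most TRIM proteins, but not all, have a RING finger, which recruits the ubiquitin-conjugating enzyme, followed by B-box zinc fingers and a coiled coil. In many of them a domain after the coiled coil sets what the protein recognises. Members serve in antiviral defence, in muscle, in chromatin regulation and in the maturation of red cells, where TRIM58 acts late. LDB1 does not bind DNA itself: through LMO2 it joins TAL1, which reads E-boxes, to GATA factors at enhancers of red cell and other blood genes, and the DNA under such a complex often carries an E-box part and a GATA site at a fixed spacing.

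Results showed that 19 of the 73 TRIM genes (26.0%) had at least 1 peak in the gene body or within 3 kb of it, against 19.7% of all protein-coding genes. The Wilson 95% interval of the TRIM share was 17.3 to 37.1%, and all intervals given here cover counting error only. TRIM genes are shorter than most, with a median length of 17136 bp against 27471 bp, and long genes hold peaks more often. The other protein-coding genes of the same length, in 20 length classes weighted as the TRIM genes, had a peak in 18.6%. The TRIM share lay 7.38 percentage points above that, with an interval of -1.30 to 18.5 points that includes 0. Among the 37 members of up to 17136 bp, 6 had a peak (16.2%, length-standardised 14.3%), and among the 36 longer members 13 did (36.1%, length-standardised 23.1%). The intervals of the shares, 7.65 to 31.1% and 22.5 to 52.4%, hold the standardised value in both length groups. When only the 5523 longest peaks of the list were kept, 7 members (9.59%) had a peak and the difference from genes of the same length became -2.45 points.

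Other numbered families were measured in the same way. The RNF genes, which encode RING finger proteins, had a peak in 20 of 84 (23.8%, 3.96 points above their length-standardised share). The FBXO genes, which encode substrate receptors of SCF ligases, had one in 11 of 36 (30.6%, 9.67 points above). The RAB genes, which encode small GTPases of membrane traffic, had one in 13 of 63 (20.6%, 0.709 points above). The Wilson interval of the TRIM share overlapped those of all these families, 16.0 to 33.9%, 18.0 to 46.9% and 12.5 to 32.2%, and no difference between families was tested.

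**Figure D1:**
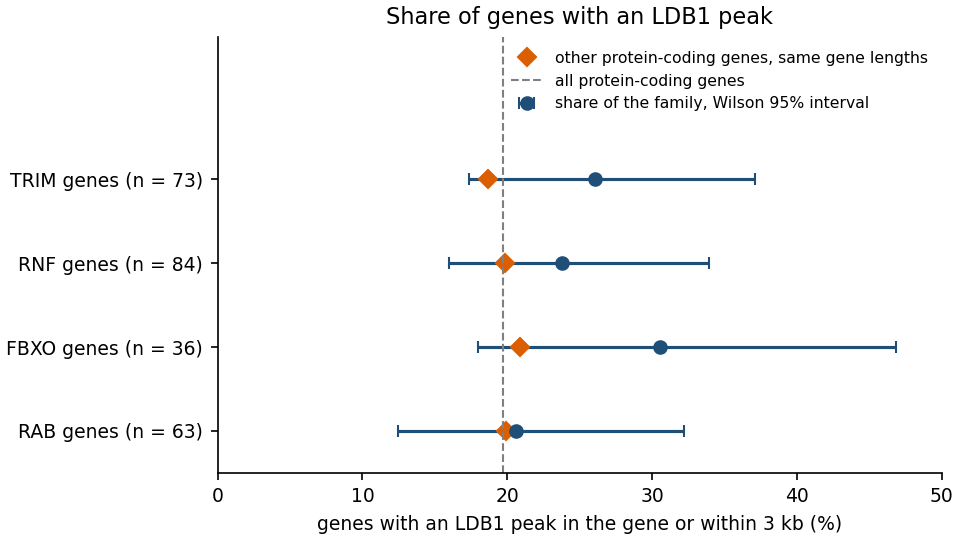
Share of genes with at least 1 LDB1 peak in the gene body or within 3 kb (percent, horizontal axis) for TRIM, RNF, FBXO and RAB genes as points with Wilson 95% intervals, with the length-standardised share as diamonds and the 19.7% of all protein-coding genes as a dashed line. The TRIM point at 26.0% lies above its standardised value of 18.6%, which falls inside its interval.

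Peaks close to a start site were counted separately. A peak midpoint lay within 3 kb of the transcription start site (TSS) of any annotated transcript of the member in 11 genes (15.1%, interval 8.63 to 25.0%). The share of all protein-coding genes was 10.3%. With the TSS of the canonical transcript alone, 7 members did (9.59%, interval 4.72 to 18.5%), against 6.19% of all. Of the members, 5 had 2 peaks (6.85%, interval 2.96 to 15.1%), near the 8.0% of all protein-coding genes with at least 2 and the length-standardised 6.81%. No member had more than 2.

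The 5 genes with 2 peaks were TRIM67, TRIM58, TRIM6, TRIM24 and TRIM56, in order of summed peak length. The 14 with 1 peak were TRIM5, TRIM8, TRIM11, TRIM16, TRIM17, TRIM22, TRIM25, TRIM33, TRIM34, TRIM39, TRIM54, TRIM63, TRIM71 and TRIM72. There were 22 distinct peaks, since 1 peak served both TRIM11 and TRIM17 and another both TRIM5 and TRIM22, whose windows overlap.

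The sequences under the peaks at TRIM58, the red cell member, are shown first because LDB1 complexes are best known from red cell genes. Capitals mark every match to a GATA, E-box, AP-1 or ETS motif in the central 200 bases of each peak on either strand of hg38, and the plus strand is printed. The first lies at chr1:247855342-247855541 and the second at chr1:247857329-247857528.
TRIM58 upstream peak: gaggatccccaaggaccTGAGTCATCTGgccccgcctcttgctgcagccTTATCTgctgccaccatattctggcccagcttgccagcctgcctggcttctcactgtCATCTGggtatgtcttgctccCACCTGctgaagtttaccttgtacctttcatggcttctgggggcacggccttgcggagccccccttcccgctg
TRIM58 exon peak: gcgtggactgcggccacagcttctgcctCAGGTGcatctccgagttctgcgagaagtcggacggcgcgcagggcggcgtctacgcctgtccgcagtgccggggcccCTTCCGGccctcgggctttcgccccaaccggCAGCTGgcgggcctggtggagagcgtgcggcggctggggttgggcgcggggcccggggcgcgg

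TRIM58 (ENSG00000162722.9, chr1:247857187-247880138, plus strand) encodes a ligase of late erythroblasts that acts on the dynein motor. Its longer peak, chr1:247854958-247855927, measured 970 bp and ranked 1247 of 11046 by length. The midpoint lay 1745 bp upstream of the TSS, and the nearest start of another protein-coding gene, the olfactory receptor gene OR11L1, was 13546 bp away. The central 200 bases held 1 GATA match, 3 E-box matches and 1 AP-1 match, which overlapped an E-box. The whole peak held 3 GATA and 5 E-box matches but no composite of the spacing described below. The other peak, chr1:247857273-247857586, measured 314 bp and lay in coding exon 1, 242 bp downstream of the TSS. Its central bases were 75.5% G or C and held 2 E-box matches, 1 ETS match and no GATA match. TRIM10, the other red cell member, which is needed for terminal erythroid maturation in cultured cells, had no peak. TRIM10 (ENSG00000204613.11, chr6:30151943-30161211, minus strand) lay 183214 bp from its nearest peak. In its window 95.3% of sampled 31-base words occur once in the main chromosomes of hg38, the only ones searched for copies.

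The next sequences carry the E-box and GATA composite, which is the letters CTG, then 7 or 8 bases, then a GATA match (AGATAA or AGATAG or TGATAA or TGATAG), on either strand. It was found in 7 of the 22 TRIM peaks when whole peaks were searched (31.8%, against 22.4% of all peaks). Those of 6 of these peaks are printed with their surroundings in hg38, on the strand that reads CTG before the GATA part, with the composite in capitals. A composite always contains a GATA match, and a match is a description of letters, not of binding.
TRIM67 upstream peak, minus strand, chr1:231160245-231160385: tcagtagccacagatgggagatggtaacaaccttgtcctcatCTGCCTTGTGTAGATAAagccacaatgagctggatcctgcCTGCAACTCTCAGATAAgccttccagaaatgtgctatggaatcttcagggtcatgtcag
TRIM67 intron peak, minus strand, chr1:231200551-231200651: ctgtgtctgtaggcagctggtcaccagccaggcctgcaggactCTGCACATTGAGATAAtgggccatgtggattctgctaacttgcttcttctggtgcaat
TRIM24 intron 5 peak, plus strand, chr7:138528171-138528271: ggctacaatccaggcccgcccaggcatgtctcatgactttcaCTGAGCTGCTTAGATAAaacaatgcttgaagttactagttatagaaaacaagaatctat
TRIM24 intron 9 peak, plus strand, chr7:138565993-138566093: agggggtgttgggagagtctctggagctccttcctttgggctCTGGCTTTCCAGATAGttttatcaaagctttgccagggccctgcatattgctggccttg
TRIM63 upstream peak, plus strand, chr1:26070558-26070658: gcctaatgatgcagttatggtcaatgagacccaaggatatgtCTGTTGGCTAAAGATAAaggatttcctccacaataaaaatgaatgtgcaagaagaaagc
TRIM34 peak, plus strand, chr11:5621283-5621383: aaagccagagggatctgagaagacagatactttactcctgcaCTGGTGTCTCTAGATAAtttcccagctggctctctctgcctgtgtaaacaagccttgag

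TRIM67 (ENSG00000119283.16, chr1:231162058-231221565, plus strand), a member expressed in the nervous system, had the largest summed peak length, 1310 bp. Its upstream peak, chr1:231159952-231160650, measured 699 bp with the midpoint 1757 bp before the TSS. This was the only TRIM peak with 2 composites, both with 8 bases between the parts, 34 and 6 bp from the midpoint. The other peak, chr1:231200329-231200939, measured 611 bp and lay in intron 4, with 1 composite of spacing 7 at 33 bp from the midpoint and 1 AP-1 match in its central 200 bases. The TSS nearest to it was that of C1orf131, at 25288 bp, rather than a start of TRIM67.

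The members with a PHD finger and a bromodomain after the coiled coil, called the TIF1 group, act on chromatin and transcription. Among these 4 genes, TRIM24 and TRIM33 had peaks while TRIM28 and TRIM66 had none (length-standardised share 24.2%). TRIM24 (ENSG00000122779.18, chr7:138460259-138589996, plus strand), a coregulator of nuclear receptors including the retinoic acid receptor, had 2 peaks inside introns. The peak in intron 5, chr7:138527824-138528386, measured 563 bp and held 3 GATA matches, with its composite 116 bp from the midpoint. The peak in intron 9, chr7:138565847-138566152, measured 306 bp and held 3 GATA matches within the central 200 bases, 1 of them in a composite 44 bp from the midpoint. Both lay more than 3 kb from any TRIM24 start, at 13705 and 11229 bp from the nearest. TRIM33 (ENSG00000197323.12, chr1:114392790-114511203, minus strand), which regulates SMAD4 and is required for red cell formation in fish, had 1 peak of 302 bp in intron 4 at chr1:114453595-114453896. It held 1 GATA and 1 RUNX match in its central bases and no composite. TRIM28, the corepressor of KRAB zinc finger proteins, had its nearest peak 7193 bp away.

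TRIM63 (ENSG00000158022.7, chr1:26051301-26068436, minus strand), the muscle ligase MuRF1, had the longest TRIM peak at 1180 bp, rank 780 of 11046. This peak, chr1:26070242-26071421, began 1806 bp upstream of the gene, and its midpoint lay 2395 bp before the nearest TRIM63 start. The whole peak held 3 GATA matches, but its composite lay 223 bp from the midpoint, and the central 200 bases held no GATA match. Of the 4 members listed by hand for muscle roles, TRIM54, TRIM63 and TRIM72 had a peak (interval 30.1 to 95.4%, length-standardised 19.7%). TRIM55 did not, though a peak lay 7823 bp from it. Only TRIM63 had one among the 5523 longest peaks, while the gene body alone left out TRIM63 and counting peaks for the nearest TSS left out TRIM72. TRIM54, the related ligase MuRF3, had 1 peak of 259 bp in intron 1 with no listed motif in its central bases. TRIM72, a protein of muscle membrane repair, had 1 peak of 247 bp in intron 2, nearer to the start of PYDC1 (820 bp) than to its own (1431 bp). The word muscle names the known role of these genes, and no muscle cells were measured. The 4 genes were listed with results of this peak list known, so nothing is read from the interval of their share.

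Of 9 members listed for antiviral or interferon-related roles, 6 had a peak (66.7%, interval 35.4 to 87.9%), against a length-standardised 20.4%. The list was chosen by hand and does not hold every member with such a role, so the share is that of the list only. The listed members with a peak were TRIM5, TRIM6, TRIM22, TRIM25, TRIM34 and TRIM56, and those without were TRIM14, TRIM21 and TRIM38. These 6 genes are not independent, since TRIM5, TRIM6, TRIM22 and TRIM34 are neighbours on chromosome 11 and TRIM5 and TRIM22 count the same peak. The cluster that holds these neighbours had 20 peaks in its span, of which 4 were at TRIM members. The length-standardised share takes no account of how many peaks lie in the neighbourhood. The list was also drawn up with results of this peak list known, and it was given no test. The count fell to 4 of 9 when peaks with a repeated centre were left out or canonical transcripts replaced whole genes, and to 2 of 9, TRIM6 and TRIM25, with the 5523 longest peaks.

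TRIM6 (ENSG00000121236.21, chr11:5596109-5612958, plus strand) takes part in interferon signalling. Its peaks, of 353 and 574 bp, lay at chr11:5595994-5596346 and chr11:5596592-5597165. Each covered an annotated TRIM6 start, with midpoints 41 and 72 bp from the nearest one. The readthrough gene TRIM6-TRIM34 starts in the same place, so the peaks cannot be given to 1 of them. The second peak held 3 E-box matches in its central bases, and 2 matches to the interferon response core lay elsewhere in the peak. TRIM34, next to TRIM6, had 1 peak of 239 bp at chr11:5621184-5621422, which held the composite 30 bp from the midpoint, an E-box and the interferon response core (GAAA, any 2 bases, then GAAA, on either strand). TRIM5 restricts retroviruses by binding their capsid, and TRIM22 is induced by interferon. Their shared peak measured 440 bp and lay in intron 1 of TRIM22, 232 bp from a TRIM22 start and 6160 bp upstream of the nearest TRIM5 start. It counts for TRIM5 because the annotated TRIM5 gene spans 275425 bp around TRIM22. The 31 bases at the centre of this peak were found 6 times in the main chromosomes of hg38, and it held 1 composite.

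TRIM25, which activates the RNA sensor RIG-I, had 1 peak of 454 bp in intron 1, 1654 bp upstream of the nearest annotated TRIM25 start, with 1 GATA match. TRIM56 (ENSG00000169871.13, chr7:101085481-101097967, plus strand), which acts in the sensing of viral nucleic acids, had 2 short peaks and no peak near its start. The 243 bp peak at chr7:101092971-101093213 lay in the untranslated part of exon 3, and the 31 bases at its centre were found 1456 times in the genome. The 254 bp peak at chr7:101100362-101100615 lay downstream of the gene.

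The remaining members with a peak had 1 each. TRIM8, a regulator of cytokine signalling, had a 494 bp peak in intron 1 with an AP-1 match, 453 bp from a TRIM8 start. TRIM71, known as LIN41, binds RNA in stem cells and had a 300 bp peak in intron 1 with 2 GATA matches, 30298 bp from its start. TRIM16 had a 280 bp peak 128 bp from the start of a shorter transcript, in intron 7 of the canonical one. The peak counted for TRIM11 and TRIM17 measured 230 bp, among the shortest of the list, and lay 478 bp upstream of TRIM11 with no listed motif. The TRIM39 peak of 235 bp lay downstream of the gene and only 589 bp upstream of the start of RPP21.

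**Figure D2:**
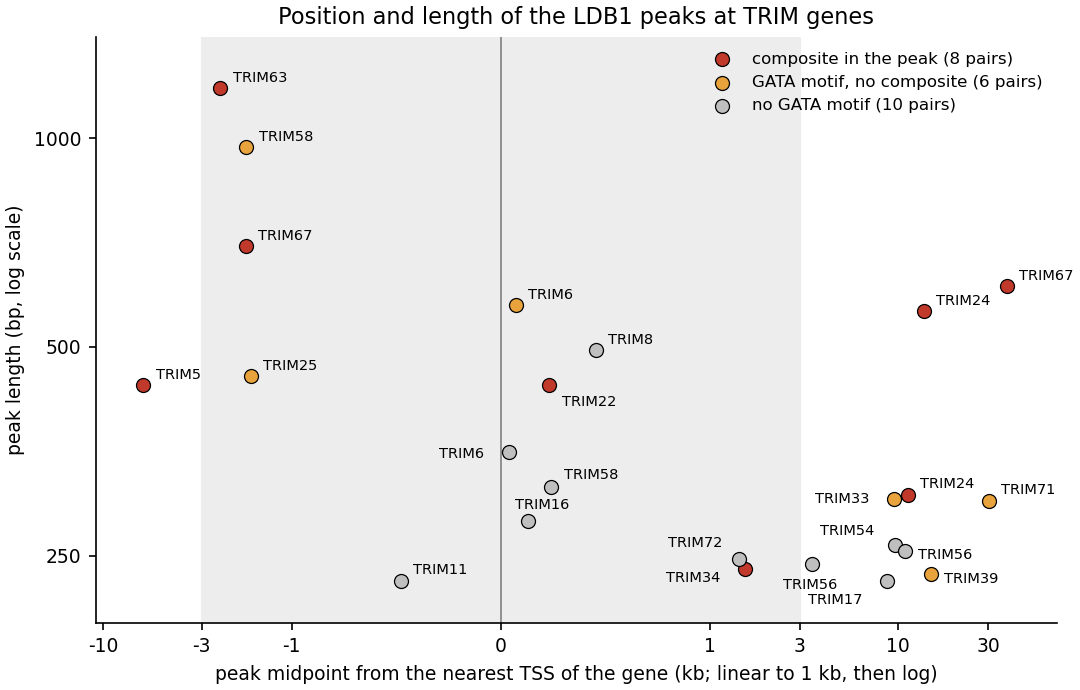
Distance of each peak midpoint from the nearest start of its TRIM gene (kb, linear to 1 kb and then log) against peak length (bp, log axis), 1 point per gene and peak, coloured by whether the whole peak holds a composite, a GATA match only or neither, with the 3 kb around the start shaded. Of the 22 distinct peaks 13 lie within 3 kb of an own start, and those beyond 10 kb are 3 with a composite (both TRIM24 peaks and the intron peak of TRIM67) and 3 without (TRIM39, TRIM56 and TRIM71). The matching shares of all peaks were not computed.

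By place in the canonical transcript, 10 of the 22 peaks lay in an intron, 7 upstream, 2 in untranslated exon sequence, 2 downstream and 1 in coding sequence, with each shared peak counted at the first of its genes by position. For 3 peaks the nearest start belonged to another gene: C1orf131, PYDC1 and RPP21. Such places were not counted for all peaks, so none of this is read as particular to TRIM genes. TRIM peaks were short, with a median of 310 bp (range 230 to 1180) against 451 bp for all peaks and 457 bp for the 6709 peaks at protein-coding genes. Only 8 of the 22 were longer than the median peak, and 12 were at or under the lower quartile of all peaks, 314 bp. With the 5523 longest peaks, 9.59% of members had a peak (interval 4.72 to 18.5%) against a length-standardised 12.0%. With the other peaks, 15 members did (20.5%, interval 12.9 to 31.2%) against 11.1%. The interval lay above the standardised share for peaks of up to 451 bp and held it for longer ones. Both shared peaks, of 230 and 440 bp, were among the shorter ones, so each counted for 2 of the 15 members. The interval takes genes as independent, so nothing is read from its place. The difference between the peak sets was not tested. How strong the short peaks were cannot be read from the list.

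Grouped by the domain after the coiled coil, members with a peak were spread over most groups. The PRY-SPRY group, whose domain binds target proteins, had 11 of 42 (26.2%, length-standardised 16.7%). Its members without a peak were TRIM4, TRIM7, TRIM10, TRIM14, TRIM15, TRIM21, TRIM26, TRIM27, TRIM35, TRIM38, TRIM41, TRIM43, TRIM43B, TRIM47, TRIM48, TRIM49, TRIM49B, TRIM49C, TRIM50, TRIM51, TRIM51G, TRIM60, TRIM62, TRIM64, TRIM64B, TRIM64C, TRIM65, TRIM68, TRIM69, TRIM75 and TRIM77. The COS group, which binds microtubules, had 3 of 8, TRIM54, TRIM63 and TRIM67 (length-standardised 21.7%), and no peak at TRIM9, TRIM36, TRIM42, TRIM46 and TRIM55. The NHL group, which includes RNA-binding members, had a peak at 1 of 4, TRIM71 (length-standardised 23.7%), and none at TRIM2, TRIM3 or TRIM32. Of 10 members with no further domain, TRIM8 and TRIM56 had peaks (length-standardised 18.5%), while TRIM29, TRIM31, TRIM40, TRIM44, TRIM52, TRIM61, TRIM73 and TRIM74 did not. The 5 members with other domains, TRIM13, TRIM23, TRIM37, TRIM45 and TRIM59, had none (length-standardised 22.3%), which with so few genes allows a share of up to 43.4%. The promyelocytic leukemia gene PML, an alias member of the family that the naming rule leaves out, had 1 peak of 718 bp.

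**Figure D3:**
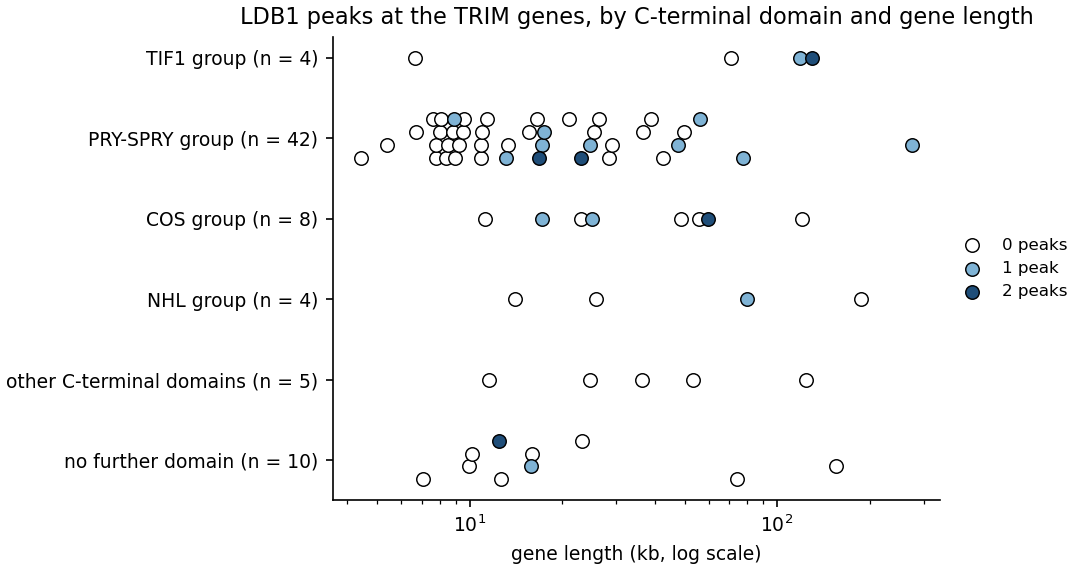
The 73 TRIM genes by length (kb, horizontal log axis) and by the domain after the coiled coil, 1 circle per gene, filled light for 1 peak, dark for 2 peaks and white for none; vertical spread within a group only separates circles. Peaks fall in every group but the 5 members with other domains, and more often in genes longer than the median of 17136 bp (13 of 36) than in the rest (6 of 37). Other protein-coding genes split at the same length also differ, with a peak in 24.6% of the longer and 11.7% of the rest.

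Of 15 members that arose by recent copying, TRIM16 alone had a peak (6.67%, interval 1.19 to 29.8%, length-standardised 14.6%). In the windows of the other members a median of 87.8% (58.6 to 97.9%) of sampled 31-base words occurred once in the main chromosomes of hg38. In those of the recently copied members the median was 14.8% (range 2.37 to 56.8%). How the authors treated reads that align to several places is not stated, so few peaks and few placeable reads cannot be told apart at these genes. Without the recently copied members 18 of 58 genes had a peak, and the difference from genes of the same length was 11.3 points (0.925 to 24.1). Since 14 of the 15 genes left out had no peak and copied genes were not left out of the comparison genes, nothing is read from that rise.

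Many TRIM genes sit side by side, and 37 of the 73 lay within 1 Mb of another member, in 11 clusters. Of the clustered members 7 had a peak (18.9%, length-standardised 15.4%), and of the 36 others 12 did (33.3%, length-standardised 22.1%). The clusters differed. The chromosome 11 cluster at chr11:4384897-6474459 held 7 members, of which TRIM5, TRIM6, TRIM22 and TRIM34 had a peak. Its span of 2089563 bp held 20 peaks in all (9.57 per Mb), of which 4 were at TRIM members. Most peaks of the span thus lay outside the windows of TRIM genes. The cluster in the major histocompatibility region, chr6:30102897-30343729, held TRIM10, TRIM15, TRIM26, TRIM31, TRIM39 and TRIM40 and had 0 peaks within its span, the TRIM39 peak lying just beyond the end. Copies of this region outside the main chromosomes of hg38 were not counted, so how many reads could be placed there is unknown.

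For members without a peak, the median gap to the nearest one was 161517.5 bp, with a range of 3714 to 2074963 bp, against a median of 106523 bp for other protein-coding genes without a peak. Of the 54 members, 36 had no peak within 100 kb (66.7%), against 51.6% of those other genes, leaving out 63 on chromosomes without peaks. The 36 include all 14 recently copied members without a peak, whose smallest gap was 147825 bp. At those genes few peaks and few placeable reads cannot be told apart, so nothing is read from the contrast. A peak lay within 10 kb of 5 of the 54 members, TRIM38, TRIM52, TRIM28, TRIM55 and TRIM46, at 3714, 6201, 7193, 7823 and 8489 bp. The recently copied members stood farthest, with a median gap of 1168744.5 bp over 14 genes. The lone members had a median gap of 126337 bp (23 genes) and the other clustered members one of 135095 bp (17 genes).

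**Figure D4:**
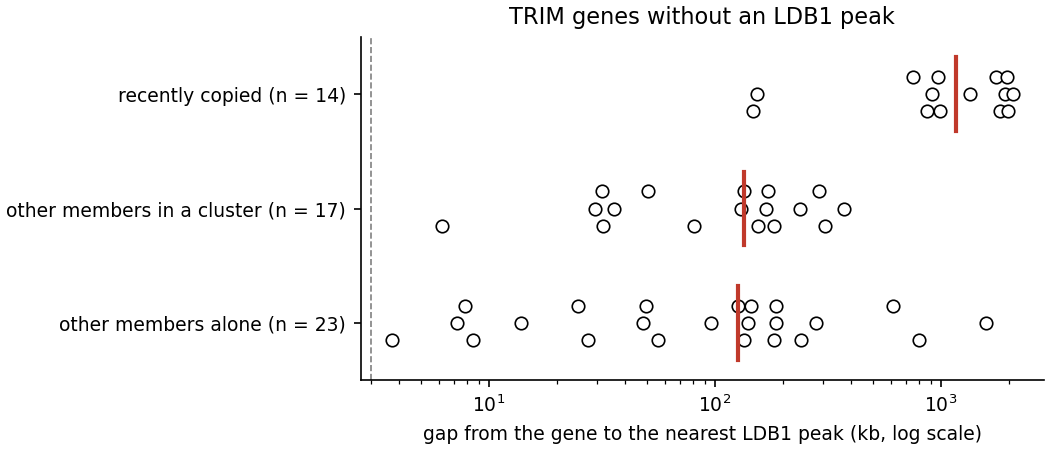
Gap from each TRIM gene without a peak to the nearest LDB1 peak (kb, log axis), 1 circle per gene with the median as a red line and the 3 kb window dashed, split into lone members, clustered members and recently copied members. The recently copied genes all lie at 147825 bp or more, while lone and clustered members range down to 3714 and 6201 bp.

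The motifs in the central 200 bases of the TRIM peaks were compared with those of all 11046 peaks. GATA matches were found in 9 of 22 (40.9%, interval 23.3 to 61.3%), against 47.1% of all peaks, and E-box matches (CAGATG or CAGCTG or CAGGTG) likewise in 9, against 45.8%. The composite was found in 4 (18.2%, 7.31 to 38.5%), against 11.1%. AP-1 matches (TGACTCA or TGAGTCA) were in 3 (13.6%, against 9.48%), and RUNX matches (TGTGGT or TGCGGT) in 2 (9.09%, against 20.5%). The ETS match CCGGAAG was in 1 (4.55%, against 1.66%), and the interferon response core in 1 (4.55%, against 1.58%). Each of these shares for all peaks lay within the interval of the TRIM share, and those intervals are wide with 22 peaks. At least 1 of the motifs was in 15 of 22 (68.2%, against 79.9%). The median GC content was also close, 50.75% against 51.5%.

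**Figure D5:**
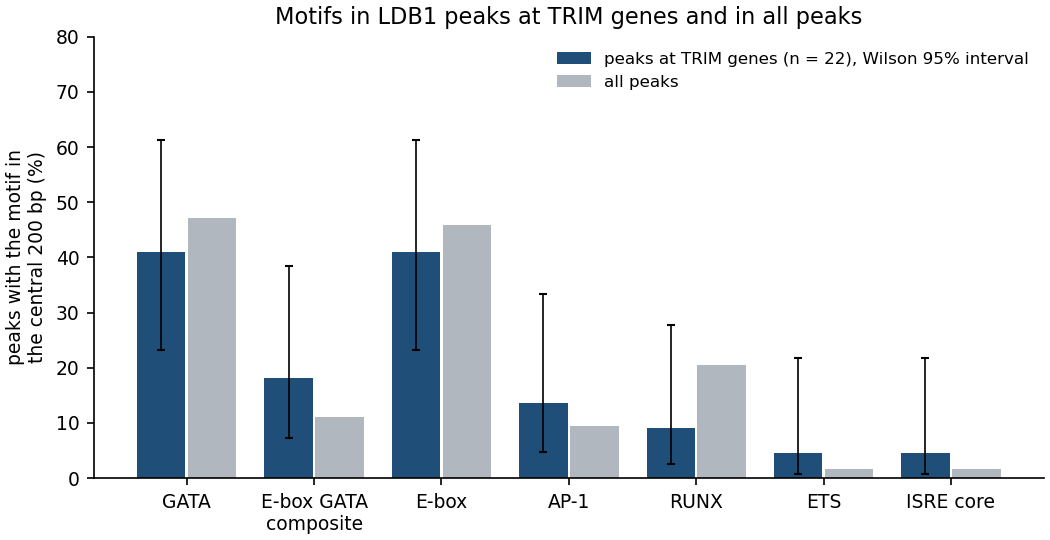
Share of peaks with each motif in the central 200 bases (percent), for the 22 TRIM peaks with Wilson 95% intervals and for all 11046 peaks. Blue bars are TRIM peaks and grey bars all peaks. Every value for all peaks lies within the TRIM interval, from 47.1% for GATA to 1.58% for the interferon response core.

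Promoters were also searched apart from the peaks. RefSeq promoter sequences (250 bases before to 50 after the start, GRCh38.p14) matched 58 of the 73 members by symbol. A peak overlapped that of TRIM6 alone (1.72%, against 2.56% of 15345 promoters). The interferon response core was in 10 TRIM promoters (17.2%, interval 9.64 to 28.9%), against 3.18% of all promoters. They were those of TRIM2, TRIM5, TRIM14, TRIM16, TRIM21, TRIM26, TRIM34, TRIM44, TRIM64C and TRIM69. Of these 10 genes TRIM5, TRIM16 and TRIM34 had a peak, beside 26.0% of all TRIM genes. None of their peaks overlapped the promoter searched. RUNX matches were in 19 (32.8%, interval 22.1 to 45.6%, against 18.7%) and ETS matches in 3 (5.17%, 1.77 to 14.1%, against 14.4%), so these intervals also left out the share of all promoters. GATA matches were in 16 (27.6%), and the interval of 17.8 to 40.2% held the 19.5% of all promoters. The composite was in none, which allows up to 6.21%, against 1.01% of all. Recently copied members descend from common ancestors and are counted separately here, so these counts are not independent.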

How the data were processed

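The authors made 1 CUT&Tag library per group from NB4 cells. Per the paper's methods and the labels, reads were aligned to hg38 with Bowtie2 (version 2.4.4) and peaks called with MACS3 (version 3.0). Use of IgG as control and the handling of ambiguous reads are not given in the sources used here. Each deposited peak came with its start, end and length (bp).

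Peaks were assigned to GENCODE release 44 genes (1 bp overlap, 3 kb either side). Length-standardised shares were the mean over the other protein-coding genes in 20 length classes, weighted by members. Motifs were searched on both strands. The sequence of 1 peak is not reported here. The counting was checked on simulated data. Members with a peak were named with their number of peaks, and the 5 with the most and the 5 with the longest peaks, TRIM58, TRIM10 and the TIF1 group were described in full. The members and lists were chosen with earlier results of these data known. Alternatives were other gene and TSS windows, length classes and motif windows, longer peaks, unique centres and nearest-gene assignment. Tools were pandas 2.3.3, SciPy 1.17.1, numpy 2.4.6 and matplotlib 3.10.9, under Python 3.11.15.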

Additional observations from a re-analysis of the deposited data

How the results depend on the processing

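Of 56 alternative values for 14 results, 1 changed sign, 14 left the 95% interval of the reported value (for the number of peaks, a range of 14.7 to 33 set around it) and 41 stayed within it, though these intervals are wide and values inside them moved too. The TRIM difference from genes of the same length was above 0 in 9 of 10 alternatives, with an interval that held 0 except without the recently copied members. With the 5523 longest peaks it was -2.45 points (-7.32 to 6.46), with a share of 9.59% and 8 peaks, while 8.22% of members had a peak near a TSS, against 6.19% of all genes. A TSS window of 1 kb also gave 8.22%, against 6.48%. In those 8 peaks GATA was in 62.5% (53.0% of all longer peaks), E-box in 62.5% (46.5%), AP-1 in 37.5% (10.2%), RUNX in 0% (20.1%), ETS in 0% (1.67%) and the interferon response core in 0% (1.81%), so GATA and E-box went from below the share of all peaks to above it. Searching whole peaks gave 63.6% for E-box and 31.8% for RUNX, against 74.0% and 43.0% of all peaks. Searching 100 bp gave 0% for AP-1 and the interferon response core, against 5.20% and 0.706%. The cause of these changes was not tested. Taking canonical transcripts only, chosen after seeing the data, gave 6.80 points. No paired analysis was possible because there was a single library for each antibody. Without peak heights or depth, a weak peak cannot be told from a strong one, and a gene without a peak is one at which none was called.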
